A study of Mus musculus with 2 samples.

Results

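Metallothioneins and the antioxidant genes driven by NRF2 were measured in EpiSC and in ELA-EpiSC, with a single array for each. The set held 10 genes: the metallothioneins Mt1 and Mt2, and 8 genes known as NRF2 targets, namely Hmox1, Nqo1, Gclm, Gclc, Slc7a11, Srxn1, Txnrd1 and Gsta4. Members were found by name: every probe for a mouse transcript whose gene name in the array files equals 1 of these symbols was taken. This gave 10 genes with 12 probes and 21 spots, among 34650 gene names on the array. No measured value entered this choice of probes.

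Both groups derive from 1 line of mouse embryonic stem (ES) cells, E14Tg2A, of strain 129/Ola. EpiSC, epiblast stem cells, are the primed form of pluripotent cell. They were made from ES cells with 20 ng/mL Activin A and 12 ng/mL FGF2 in a chemically defined medium with N2 and B27 (no vitamin A). ELA-EpiSC received the same factors after the ES cells had first formed Epiblast-Like Aggregates (ELA). The induction medium of both groups contained 0.05 mM β-mercaptoethanol, a thiol reductant, and B27 is a supplement that itself supplies antioxidants. For each group, RNA pooled from 3 independent experiments was hybridized to 1 array, so no comparison had a replicate and no p-value can be given. The titles and descriptions of the samples define these groups, whereas a further label calls the EpiSC sample an Argonaute immunoprecipitate and places both samples at the undifferentiated stage. Epiblast markers were detected on both arrays, with a log2 signal of 14.27 in EpiSC and 14.46 in ELA-EpiSC for Pou5f1, and 15.19 and 15.34 for Fgf5.

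Metallothioneins are small cysteine-rich proteins that bind zinc and copper. Their genes are switched on by metals through the metal sensor MTF1, which binds metal response elements in their promoters, and they also respond to oxidants and glucocorticoids. NRF2, encoded by Nfe2l2, is held back by KEAP1, which presents it for degradation. When oxidants or electrophiles modify KEAP1, NRF2 accumulates, pairs with a small MAF protein and binds antioxidant response elements, where the repressor BACH1 competes with it. In pluripotent cells and in the early embryo both systems buffer metals and reactive oxygen. Metallothionein is also known as an abundant product of the visceral endoderm, the extraembryonic layer that surrounds the epiblast.

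Promoter sequences are shown for the members in which these elements can be read, to let the letters be seen beside the measurements. The RefSeq table (GRCm38.p6) held 9 windows for 7 members, each reaching from 250 bases before to 50 bases after an annotated start. No window was held for Hmox1, Gclc and Gsta4. Both strands were searched for TGACNNNGC (antioxidant response element core), TGCACNC and TGCGCNC (metal response element core), and TGACTCA (AP-1 element, which can lie inside the first). TGAGNNNGC, another form of the antioxidant core, was added after the sequences had been seen. Capitals mark the matches to any of these, and each sequence reads 5′ to 3′ on the plus strand, which is the strand of all 5 genes shown.
Mt2, chr8:94172368-94172617: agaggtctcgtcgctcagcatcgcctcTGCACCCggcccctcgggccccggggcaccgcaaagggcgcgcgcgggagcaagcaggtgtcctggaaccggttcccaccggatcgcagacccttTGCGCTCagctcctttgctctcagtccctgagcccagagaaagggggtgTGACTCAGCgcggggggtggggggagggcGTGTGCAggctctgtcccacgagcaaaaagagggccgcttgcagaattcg
Mt1, chr8:94179054-94179083: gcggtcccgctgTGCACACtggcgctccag
Srxn1, chr2:152105274-152105523: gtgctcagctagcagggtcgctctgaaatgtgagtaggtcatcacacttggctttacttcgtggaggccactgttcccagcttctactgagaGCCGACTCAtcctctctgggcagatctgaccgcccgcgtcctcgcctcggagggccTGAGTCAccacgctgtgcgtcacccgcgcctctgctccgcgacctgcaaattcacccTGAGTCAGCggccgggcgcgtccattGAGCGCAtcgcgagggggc
Gclm, chr3:122245307-122245484: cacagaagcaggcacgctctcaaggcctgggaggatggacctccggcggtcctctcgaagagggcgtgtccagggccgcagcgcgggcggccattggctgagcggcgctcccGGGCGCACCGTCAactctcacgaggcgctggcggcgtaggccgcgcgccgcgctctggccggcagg
Txnrd1, chr10:82859103-82859132: actggatttttGCTTTGTCAttctgacacg

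In Mt2 the metal response element core occurred 223, 128 and 50 bases before the start, the last on the opposite strand. The antioxidant core of Mt2, TGACTCAGC, lay 79 bases before the start and overlapped the AP-1 element there. In Mt1 a metal core lay 23 bases before the start. Mt2 and Mt1 are neighbours on chromosome 8, with 0 other genes of the RefSeq table between them. In Gclm the antioxidant core lay 134 bases before the start of its window, on the opposite strand, and overlapped a metal core there. The Gclm sequence shown stops at an earlier annotated start, so it leaves out a metal core 72 bases before the start of the window. In Srxn1 the other form, TGAGTCAGC, lay 45 bases before the start and overlapped an AP-1 element. A second match to this form lay 158 bases before the start, on the opposite strand, and a second AP-1 element 102 bases before it. Srxn1 also held a metal core 19 bases before the start, on the opposite strand. The Srxn1 window also held TGACNNNGC, 28 bases after the start on the opposite strand. Metal cores after the start lay at 2 and 20 bases in Mt1, 4 in Mt2 and 27 in Gclm. In Txnrd1 the antioxidant core lay 92 bases before 1 of its 3 annotated starts. The window of Slc7a11 held only TGAGNNNGC, 97 bases before its start, and that of Nqo1 held none of the motifs. These letters are frequent: among all 32851 promoter windows of the same length, 12.4% held TGACNNNGC, 17.6% held TGAGNNNGC, 25.7% held a metal core of either form and 5.20% held TGACTCA. A match is a string of letters and was not tested as a binding site.

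Signals are given as log2 of the background-corrected spot intensity after quantile normalization, and every difference is log2 ELA-EpiSC minus EpiSC, so a negative value means a lower signal in ELA-EpiSC. Levels of different genes cannot be compared on this scale, because each probe binds its target with its own efficiency. All 12 member probes were well above background on both arrays and 0 were saturated. In addition, no member probe shared a run of 20 bases with a probe of another gene name. The only error that could be measured was that of the spots: probes printed at 10 positions had a root-mean-square SD of 0.10 for the difference, over 234 such probes with a mean log2 of at least 7.5. This SD says nothing of variation between labellings or cultures.

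Metallothionein signal was lower in ELA-EpiSC by every probe of Mt1 and Mt2, except that Mt2 came to 0.01 when the spike-in controls were set equal. Mt1, a metallothionein found in most tissues, gave 17.37 in EpiSC against 16.09 in ELA-EpiSC (difference -1.28, or 2.43-fold). Before normalization the spot itself read 172699 intensity units in EpiSC against 68643 in ELA-EpiSC. The difference is thus present in the raw spot. This probe lies on chromosome 8 at 96704165 to 96704224 of the mm9 assembly, which the array files use. A second Mt1 probe, designed to a predicted transcript and lying at 96703844 to 96703903, gave 10.04 and 8.53, a difference of -1.51. Mt2, the companion gene, gave 17.51 in EpiSC against 16.98 in ELA-EpiSC (difference -0.53, or 1.44-fold). Its spot, at 96697371 to 96697430, read 189399 and 127432 units. Both genes lay beyond the spot SD, with a larger difference for Mt1 than for Mt2.

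**Figure D1:**
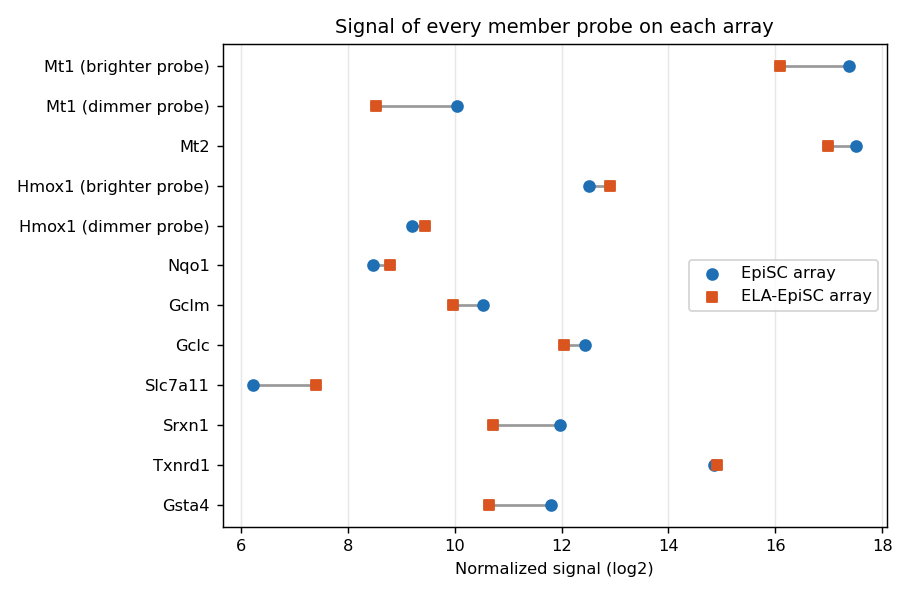
Normalized log2 signal (x axis) of each of the 12 member probes (y axis) on the EpiSC array (circles) and the ELA-EpiSC array (squares), joined by a line; 1 array per group. The Mt1, Srxn1 and Gsta4 lines run more than 1 log2 unit to the left in ELA-EpiSC, that of Slc7a11 runs to the right, and the Txnrd1 symbols nearly coincide at 14.84 and 14.90.

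The other metallothioneins on the array moved little. Mt3, the brain form, gave 9.98 and 10.03, and Mt4, the form of stratified epithelia, gave 8.38 and 8.18. Mtf1, the metal sensor itself, gave 8.70 and 8.63, with a difference of -0.07. Slc30a1, a zinc exporter that is a textbook target of MTF1, gave 10.71 and 11.07, a difference of 0.36 in the opposite direction to Mt1. Slc31a1, the high-affinity copper importer, went from 13.29 to 12.28, a difference of -1.01. Over the 18 genes of metal handling that passed the minimum level (a mean log2 of 7.5), Mt1 and Mt2 included, the median difference was -0.06, with 0 genes higher and 2 lower by at least 1 (Mt1 and Slc31a1), beside 4.54% and 4.46% of all genes. Slc31a1 lay within the spot SD of this threshold and came to -0.80 under median scaling and -0.47 under spike-in scaling. The median of this list was 0.10 under median scaling and 0.47 under spike-in scaling.

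Among the NRF2 antioxidant genes no shared direction was seen. Srxn1, sulfiredoxin, which restores over-oxidized peroxiredoxins, gave 11.97 in EpiSC against 10.72 in ELA-EpiSC (difference -1.25, or 2.37-fold). Its raw spot signals were 3606 and 1850 units. Gsta4, a glutathione S-transferase that detoxifies the lipid peroxidation product 4-hydroxynonenal, gave 11.80 and 10.64, a difference of -1.17 or 2.24-fold. These 2 genes were the only NRF2 members lower by at least 1.

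Gsta4 was the member with the most direct measure of spot error, since its probe was printed at 10 positions. On each array 1 spot was flagged and 9 positions were used. The spots ranged from 11.73 to 11.94 (median 11.78) in EpiSC and from 10.43 to 10.80 (median 10.65) in ELA-EpiSC, without overlap. The difference over positions was -1.17 ± 0.096 (SD, n = 9 spots), and it ranged from -1.30 to -1.04. Spots of 1 array are not replicates of a condition, and the SD describes the arrays alone.

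**Figure D2:**
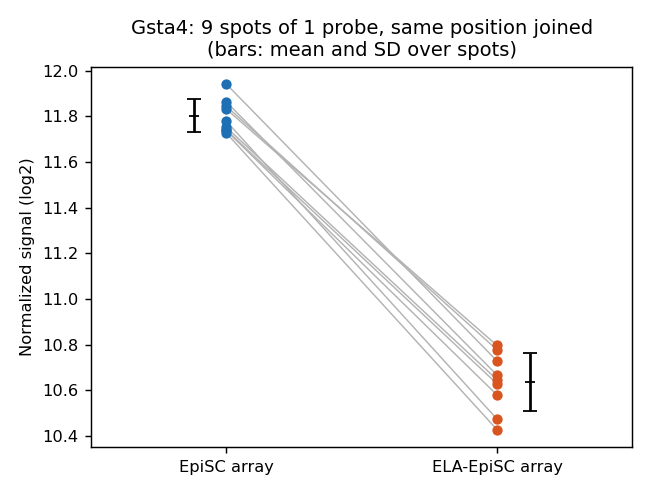
Normalized log2 signal (y axis) of the 9 Gsta4 spots on each array, with spots at the same printed position joined; the black bars give the mean and SD over spots of 1 array. All 9 lines fall, from 11.73 to 11.94 in EpiSC to between 10.43 and 10.80 in ELA-EpiSC.

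Glutathione synthesis begins with glutamate-cysteine ligase, whose catalytic subunit is Gclc and whose modifier subunit is Gclm. Gclm gave 10.52 in EpiSC against 9.97 in ELA-EpiSC, which differ by -0.55. Gclc gave 12.44 and 12.05, a difference of -0.39. Both subunits thus lay below 0, by less than 2-fold, although Gclc turned to 0.15 under spike-in scaling. In raw signal the arrays were closer, at 1287 and 1085 units for Gclm and 5015 and 4646 units for Gclc.

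Slc7a11, the light chain of the cystine and glutamate exchanger that supplies cysteine for glutathione, ran the other way. It gave 6.23 in EpiSC against 7.40 in ELA-EpiSC (difference 1.18, or 2.26-fold). Its mean log2 of 6.81 is below the minimum of 7.5, so it was not counted among genes past the threshold. In EpiSC its spot read 42.8 units over a local background of 27, or 1.59 times background, and in ELA-EpiSC 146 units over 24, or 6.10 times. The size of the difference varied with background correction and scaling, from 0.95 to 2.80 over the alternatives, and it was above 0 in all of them. Slc3a2, the heavy chain that carries SLC7A11 to the membrane and also serves other amino acid transporters, went from 15.07 to 16.16, a difference of 1.10.

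Hmox1, heme oxygenase 1, which breaks heme down to biliverdin, iron and carbon monoxide and is repressed by BACH1, gave 12.52 and 12.91, a difference of 0.39. A second Hmox1 probe, dimmer, gave 9.20 and 9.44, a difference of 0.24. Both probes ran the same way. Nqo1, the quinone reductase used widely as a readout of NRF2, gave 8.48 and 8.79, a difference of 0.30. Txnrd1, cytosolic thioredoxin reductase, gave 14.84 and 14.90, a difference of 0.06 that is less than the spot SD.

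Of the 10 members, 6 were lower and 4 higher in ELA-EpiSC, beside 49.8% and 50.2% of all genes. The 4 include Txnrd1, whose difference of 0.06 is within the spot SD. Past an absolute difference of 1, which is 2-fold, 3 of the 9 members with the minimum level were lower (Mt1, Srxn1 and Gsta4) and 0 were higher. By the same rule 742 of 16649 genes, or 4.46%, were lower and 756 genes, or 4.54%, were higher. The median difference was -0.46 over the 10 members and -0.16 over the 8 NRF2 genes, Slc7a11 included in both. Over genes with the minimum level, which leaves Slc7a11 out, it was -0.53 for 9 members and -0.39 for 7 NRF2 genes. The median over all genes with that level was 0.00. With 9 genes this is a description of 1 pair of pools.

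**Figure D3:**
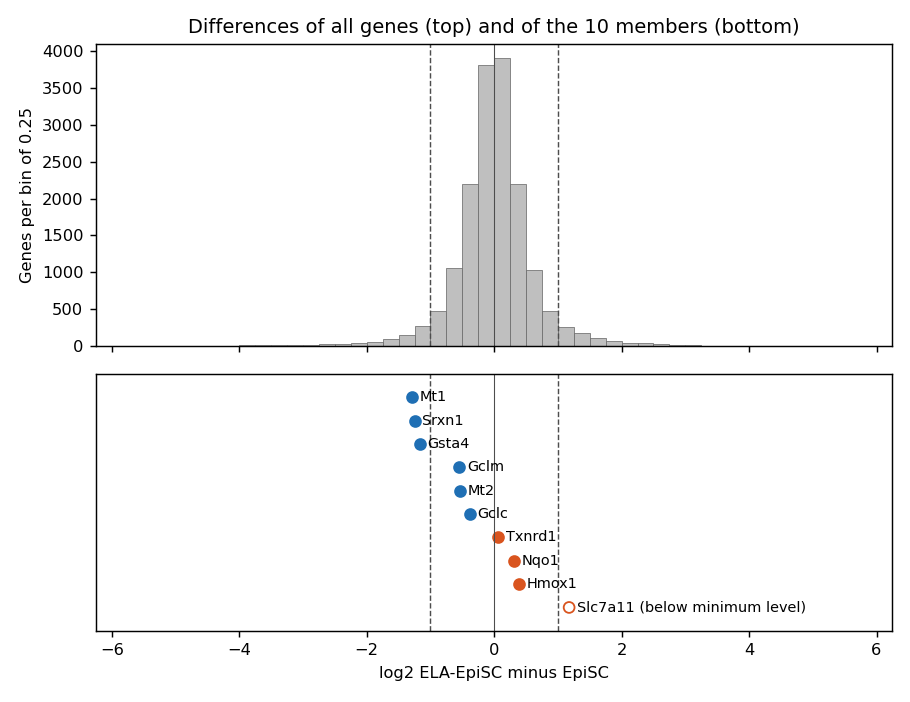
Top, number of genes (y axis) per bin of 0.25 in the log2 difference ELA-EpiSC minus EpiSC (x axis) for the 16649 genes with the minimum level; bottom, the 10 members on the same x axis, ordered by their difference, with Slc7a11 open because it is below the minimum. Dashed lines mark differences of -1 and 1; Mt1, Srxn1 and Gsta4 lie left of the lower line.

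The direction of several members rested on how the arrays were scaled. The 8 detected spike-in probes, which are control RNAs added during labelling, all read lower in ELA-EpiSC, with a mean difference of -0.54 (-0.86 to -0.26). Setting them equal adds 0.54 to every difference. Mt1 then stood at -0.75, Srxn1 at -0.71 and Gsta4 at -0.63, still below 0 but no longer past 1. Mt2 moved to 0.01, Gclm to -0.01 and Gclc to 0.15, while Hmox1 and Nqo1 moved up to 0.93 and 0.84. Under median scaling Gsta4 stood at -0.93, also short of 1. Of the 16 alternatives, 4 concern filters and the threshold and leave the difference of a member as it is. Under the other 12, Mt1, Srxn1, Gsta4 and Gclm kept a negative sign, and Hmox1, Nqo1 and Slc7a11 a positive one. Txnrd1 fell below 0 under both scalings to the 75th percentile, to -0.23 with the scanner's processed signal. Relative to the median of all genes, which the spike-in scaling also moved to 0.54, the members kept their places.

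**Figure D4:**
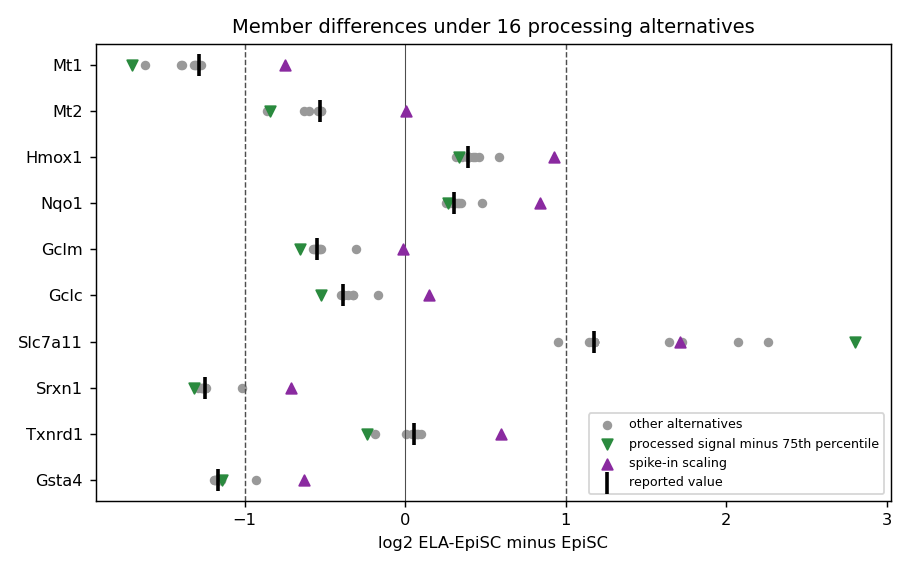
Log2 difference ELA-EpiSC minus EpiSC (x axis) of each member (y axis) as reported (black bars) and under 16 processing alternatives (symbols). The spike-in scaling (upward triangles) shifts every member to the right by 0.54, which brings Mt2 to 0.01 and Gclc to 0.15, and Slc7a11 has the widest spread, up to 2.80.

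The regulators of NRF2 gave a mixed picture. Nfe2l2, the gene of NRF2 itself, stood at 12.49 in EpiSC against 11.71 in ELA-EpiSC, and this difference of -0.78 was below 0 under all alternatives. Keap1 differed by -0.22 and Bach1 by -0.22, and both turned positive under median and spike-in scaling. Mafg, a small MAF partner, differed by 0.13. Maff, another small MAF, went from 11.12 to 12.44, a difference of 1.32. Nfe2l3, a relative of NRF2, went from 8.55 to 7.30, a difference of -1.25, although its other probe gave only -0.30. Over the 12 regulators the median was 0.03, with 1 gene higher and 1 lower by at least 1, beside 4.54% and 4.46% of all genes. NRF2 is controlled mainly through its protein, which arrays do not measure.

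The wider antioxidant list held 114 further genes of metal handling, NRF2 regulation, NRF2 targets, glutathione, thioredoxin, glutathione S-transferases, superoxide and heme. Of these, 107 were detected and 100 had the minimum level. Past a difference of 1, 8 were higher and 7 lower in ELA-EpiSC, or 8% and 7% of the 100, beside 4.54% and 4.46% of all genes. The median of the list was -0.10, with 38 genes above 0 and 62 below, beside 50.2% and 49.8% of all genes. Under spike-in scaling Cbr3 and Gpx2 were the 2 genes still lower by at least 1. The median of the list became 0.02 under median scaling and 0.43 under spike-in scaling.

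Other NRF2 target genes contributed the lowest value of the list. Cbr3, a carbonyl reductase, went from 13.29 to 10.91, a difference of -2.38. Gpx2, an epithelial glutathione peroxidase, went from 12.15 to 10.60, a difference of -1.55. In contrast, Abcc1, which exports glutathione conjugates, went from 10.93 to 12.58, a difference of 1.64. Ephx1, microsomal epoxide hydrolase, went from 9.50 to 10.89, a difference of 1.38, but its other probe gave 0.12. Of 29 such targets with the minimum level, 22 were below 0, beside 49.8% of all genes. By at least 1, 2 were higher and 3 lower, beside 4.54% and 4.46% of all genes. The median of these targets, -0.19, became 0.35 under spike-in scaling.

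Of 16 glutathione S-transferases with the minimum level, Gsta4 included, 13 were below 0, beside 49.8% of all genes. By at least 1, 3 were lower and 0 higher, beside 4.46% and 4.54% of all genes. Their median of -0.47 became 0.06 under spike-in scaling. Gstp1 went from 14.28 to 13.08, a difference of -1.20, and Gstp2 from 15.93 to 14.47, a difference of -1.47. These neighbouring genes are nearly identical in sequence, and their probes may read the same transcripts, in which case they count as 1 gene. Among membrane-bound relatives, Mgst1 went from 11.15 to 9.69, a difference of -1.47. Mgst2 went from 8.15 to 6.65, a difference of -1.50, with a mean below the minimum level.

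In the list of glutathione synthesis and use, 3 of 20 genes were higher by at least 1 (Chac1, Cth and Slc3a2) and 1 was lower (Mgst1). The shares over all genes were 4.54% higher and 4.46% lower. Chac1, which degrades glutathione, went from 13.62 to 16.01, a difference of 2.38. Cth, which makes cysteine from cystathionine, went from 12.37 to 14.34, a difference of 1.97. Gsr, glutathione reductase, differed by -0.04, and Gpx4, the peroxidase that protects membrane lipids, by 0.30. In the thioredoxin system Txnip, an inhibitor of thioredoxin, differed by 1.10 and Sesn2, a stress-induced sestrin, by 1.15. The other Txnip probe gave 0.76. Txn1, thioredoxin, differed by -0.36 and Prdx1, the peroxiredoxin, by -0.45, and both became positive under spike-in scaling. The median over the 16 genes of that system, Srxn1 and Txnrd1 included, was -0.35, or 0.18 under spike-in scaling. Superoxide dismutases and catalase differed little by their brightest probes, with -0.13 for Sod1, 0.06 for Sod2 and 0.08 for Cat. The other Cat probe gave -0.39. Sod3, the extracellular form, was well above background on the EpiSC array alone, but its signals of 6.21 and 6.11 differed by about the spot SD, and the sign turned under spike-in scaling (0.43).

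**Figure D5:**
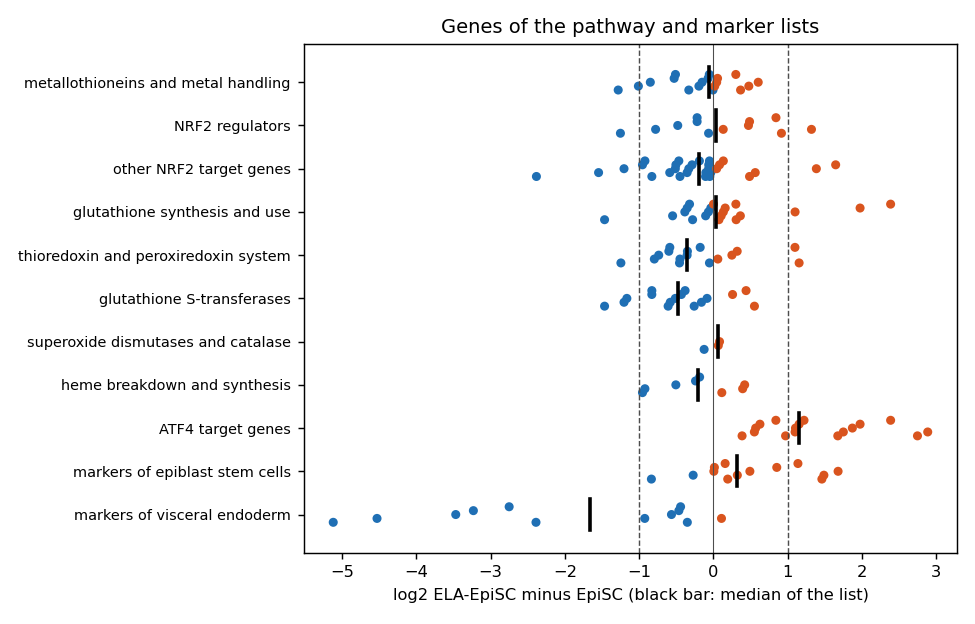
Log2 difference ELA-EpiSC minus EpiSC (x axis) of each gene with the minimum level (points) in the pathway lists and in the marker lists of epiblast stem cells and visceral endoderm (y axis); vertical spread within a list only separates the points, lists share genes, and members are included. Black bars give the list medians, from -1.66 for visceral endoderm markers to 1.15 for ATF4 targets.

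Slc7a11 and 4 of the 8 higher genes of the wider list (Chac1, Cth, Sesn2 and Slc3a2) also belong to a list of targets of ATF4, the transcription factor of the amino acid and stress response. Of the 17 ATF4 targets with the minimum level, 11 were higher in ELA-EpiSC by at least 1 and 0 were lower. Over all genes these shares were 4.54% and 4.46%. The median of the ATF4 list was 1.15. Ddit3 (CHOP) differed by 2.88 and Atf3 by 2.75. This list moved in the same direction as Slc7a11 and was above 0 under every scaling. Its part in the Slc7a11 difference was not tested.

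Markers of visceral endoderm were mostly lower in ELA-EpiSC. All 18 listed markers were detected on at least 1 array, and 15 were lower and 3 higher in ELA-EpiSC, beside 49.8% and 50.2% of all genes. Foxa2, Cited1, Apom and Ihh, counted as lower, turned above 0 under spike-in scaling. The summed normalized signal of the markers was 89016 in EpiSC against 44302 in ELA-EpiSC. Hnf4a, a master regulator of that layer, went from 12.79 to 7.67, a difference of -5.12. Rbp4 differed by -3.23, Amn by -2.75 and Gata4 by -2.39. Smaller differences were seen for Gata6 (-0.57), Cited1 (-0.47) and Foxa2 (-0.44), while Cubn (0.11) and Apob (0.55) were higher. Ttr, Apoa1 and Apoa4 were not well above background on the ELA-EpiSC array. After quantile normalization Ttr was at least 10.7-fold higher in EpiSC. This bound is smaller under spike-in scaling, where the Ttr difference of -3.47 became -2.93. Afp, in contrast, was near the detection limit on both arrays, at 6.26 and 6.47. Among the 12 markers with the minimum level 6 were lower by at least 1 and 0 were higher, beside 4.46% and 4.54% of all genes. The median of these 12 markers was -1.66, or -1.12 under spike-in scaling. In bulk RNA, fewer cells of a type and less RNA per cell cannot be told apart. The part of these cells in the Mt1, Srxn1 and Gsta4 differences was not tested.

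Of the other marker lists, ground-state ES cells had a median of -0.87 over 8 genes and a summed signal of 9743 in EpiSC and 4572 in ELA-EpiSC. Neural markers summed to 15430 and 62598, mesoderm and fibroblast markers to 11875 and 28284, and macrophage markers to 9007 and 11846. Pax6, Prdm14 and Lyz2 were not well above background on either array. Of 13 epiblast markers, 11 were higher in ELA-EpiSC, 4 of them by at least 1 (Zic2 1.68, Nodal 1.49, Pou3f1 1.46 and Zic5 1.14). The lowest Zic5 probe gave 0.72. Counted among the 11 were Otx2 (0.00) and Cer1 (0.01), both within the spot SD. Otx2, Cer1 and Fgf5 turned below 0 under some scalings. Over all genes, 50.2% were above 0 and 4.54% were higher by at least 1. The epiblast markers had a median of 0.32. Their summed signal was 381470 in EpiSC against 383091 in ELA-EpiSC, since the bright Dnmt3b differed by -0.84. Their part in the member differences was not tested either.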

How the data were processed

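Total RNA of EpiSC and ELA-EpiSC, 1 array each, was labelled with Cy3 from 50 ng per the labels and hybridized to Agilent one-colour arrays. The deposited scanner files hold raw spot intensity, with local background, made with Feature Extraction (version 10.7.3.1 per the file headers, 9.1 in the submitters' processing notes). A table of log2 values that the authors deposited beside them, background-corrected and quantile normalized with limma, served as an alternative.

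Here the mean spot signal was corrected with normexp (offset 50, limma 3.58.1, R 4.3.3), fitted on all spots. Control spots and flagged spots (158 in EpiSC, 117 in ELA-EpiSC) were removed, and log2 values were quantile normalized and averaged over spots of a probe. The offset compresses differences of dim probes, and quantile normalization removes any shift shared by all genes. Detection of a probe required a share of 0.5 or more of its spots to be flagged well above background, which held for 65.9% and 65.0% of 55681 probes. A gene took its brightest detected probe, with a minimum mean log2 of 7.5 and a threshold of 1. For a gene detected on 1 array, the bound used the lowest detected signal of the other (5.89 in EpiSC, 6.11 in ELA-EpiSC). With 2 arrays, precision is limited by their number, and no test was made. The arithmetic was tested on simulated data.

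All 12 member probes matched the RefSeq symbol of their accession. Where within a transcript each probe lies was not determined, since the annotation used here is of another assembly than the probe coordinates. Named genes were all members, every other listed gene past 1 or detected on 1 array, and a set of regulators and core enzymes. Mt3, Mt4, Slc30a1, Mgst2 and the ATF4 and marker genes were named beside this rule after their values were seen. Members, lists and rules were chosen with earlier results of these data known, and list counts are not independent evidence. In all, 16 alternatives were tried.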

Additional observations from a re-analysis of the deposited data

How the results depend on the processing

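No paired analysis was possible because there is a single array per group. Of the 16 alternatives, 4 (filters, minimum level and threshold) cannot move a member's difference. Of 120 member values under the other 12, 87 stayed within the spot SD (0.10) of the reported value and 33 did not, 10 of these under spike-in scaling, 8 under median scaling and 6 with the processed signal. The median difference over members was -0.59 with the processed signal minus its 75th percentile, -0.24 under median scaling and 0.080 under spike-in scaling. Members past 1 numbered 1 higher in ELA-EpiSC (Slc7a11) without a detection filter and minimum level, and 0 lower under spike-in scaling, or 2 under median scaling, where Gsta4 was at -0.93. Under spike-in scaling the wider antioxidant list had 16 genes higher and 2 lower past its threshold, and at a 1.5-fold threshold 11 genes were higher and 19 lower, beside 11.1% and 10.9% of all genes. Over all genes, the share of calls that were higher in ELA-EpiSC was 50.5% as reported, 46.8% with the processed signal, 68.3% under median scaling and 89.1% under spike-in scaling, where 2496 genes were higher and 306 lower. The spike-in shift follows from its construction, 1 constant for all genes, and the cause of the other changes was not tested. Signal over background was lowest for Slc7a11 in EpiSC (1.59 times), which limits that difference.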

Other observations

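Genes of iron and heme handling, several of which share control by NRF2 and BACH1 with Hmox1, did not move as 1 group. The ferritin chains differed by -0.33 for Fth1 (0.21 under spike-in scaling) and 0.04 for Ftl1, and Tfrc, the transferrin receptor, by 0.02. Downstream of heme oxygenase, Blvra, biliverdin reductase A, went from 9.29 to 9.71, a difference of 0.42, but its other probe gave 0.11. Blvrb gave 12.96 and 12.03, differing by -0.92 as reported and by -0.39 with spike-in scaling. Slc48a1, a heme transporter, went from 10.58 to 9.63, a difference of -0.96. Over 8 genes of heme breakdown and synthesis, Hmox1 included, the median was -0.21, or 0.32 under spike-in scaling. In this list 0 genes were past 1 in either direction, beside 4.54% higher and 4.46% lower over all genes. With 1 array per group these values have no replicate.

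Zinc importers also split: Slc39a8 went from 14.30 to 13.45, a difference of -0.85, and Slc39a6 from 10.39 to 10.99, a difference of 0.60. These genes were chosen after their values were seen.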
